A study of Macaca fascicularis with 6 samples.

Results

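The 9 genes described here, ORMDL3, GSDMB, PGAP3, ERBB2, IKZF3, STARD3, MIEN1, GRB7 and CDK12, lie close together in the region that carries the 17q asthma locus in humans. They were chosen by symbol, and each matched 1 of the 28623 genes in the files. All 9 were found on chromosome 16 of the RefSeq gene table for cynomolgus monkey (assembly T2T-MFA8v1.1), in the order CDK12, STARD3, PGAP3, ERBB2, MIEN1, GRB7, IKZF3, GSDMB and ORMDL3, and the gene models of ERBB2 and MIEN1 overlap there. That table was used only for this order, because the reads were aligned to another assembly, macFas6.

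The study profiled dissociated lung tissue of 6 male cynomolgus monkeys, aged 3 to 5 years, by droplet-based single-cell RNA sequencing of transcript 3′ ends, with 1 library per monkey. The 3 monkeys of the asthma group (replicates 8, 10 and 11) had been sensitized by subcutaneous injection of an antigen of the roundworm *Ascaris suum* at 1 mg/mL in adjuvant and then challenged intranasally at 10 mg/mL. The 3 monkeys of the control group (replicates 1, 2 and 3) had received saline in the same way, and lung tissue was taken in week 11. The comparison asks where in the lung the genes of the locus were expressed and whether their level differed between the asthma and control groups. The p-values below measure the spread between monkeys, each of which gave 1 library.

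The libraries held between 29014556 and 41489879 unique molecular identifiers (UMIs, each counting 1 captured transcript) over 35133 barcodes in total, of which 24235 were kept as cells. Kept cells had a median of 3835 to 5048.5 UMIs per library. Of 34996 distinct barcodes, 137 occurred in more than 1 library. Cells were grouped into 11 classes and 19 subtypes rebuilt from marker genes, and the ending -like marks a rebuilt name, so that a difference from the study can come from the naming. Another 1848 cells fell into sub-clusters with markers of several classes and stayed out of the classes.

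Variants at this locus are among the best known associations with childhood-onset asthma in people, and the genes have unlike roles. ORMDL3 restrains serine palmitoyltransferase, the first enzyme of sphingolipid synthesis, in the endoplasmic reticulum, and GSDMB is a pore-forming gasdermin. ERBB2 is a receptor tyrosine kinase of the epidermal growth factor receptor family, GRB7 an adaptor that binds such receptors, IKZF3 (Aiolos) an Ikaros-family transcription factor of lymphocytes, PGAP3 a remodelling enzyme of glycosylphosphatidylinositol (GPI) anchors, STARD3 a cholesterol-binding protein of late endosomes, MIEN1 a small membrane-associated protein and CDK12 a kinase of transcription elongation.

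Levels are given in CPM, the usual scaling of the UMIs of a gene to the UMIs of all genes in that cell type, computed in each library with at least 10 cells of the type and then averaged over libraries. Because only transcript 3′ ends were counted, levels were compared between cell types for 1 gene and never between genes. The genes were picked by name, with earlier results of these data known, and the cell types were defined on the same cells, so differences between cell types are described and not tested.

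**Figure D1:**
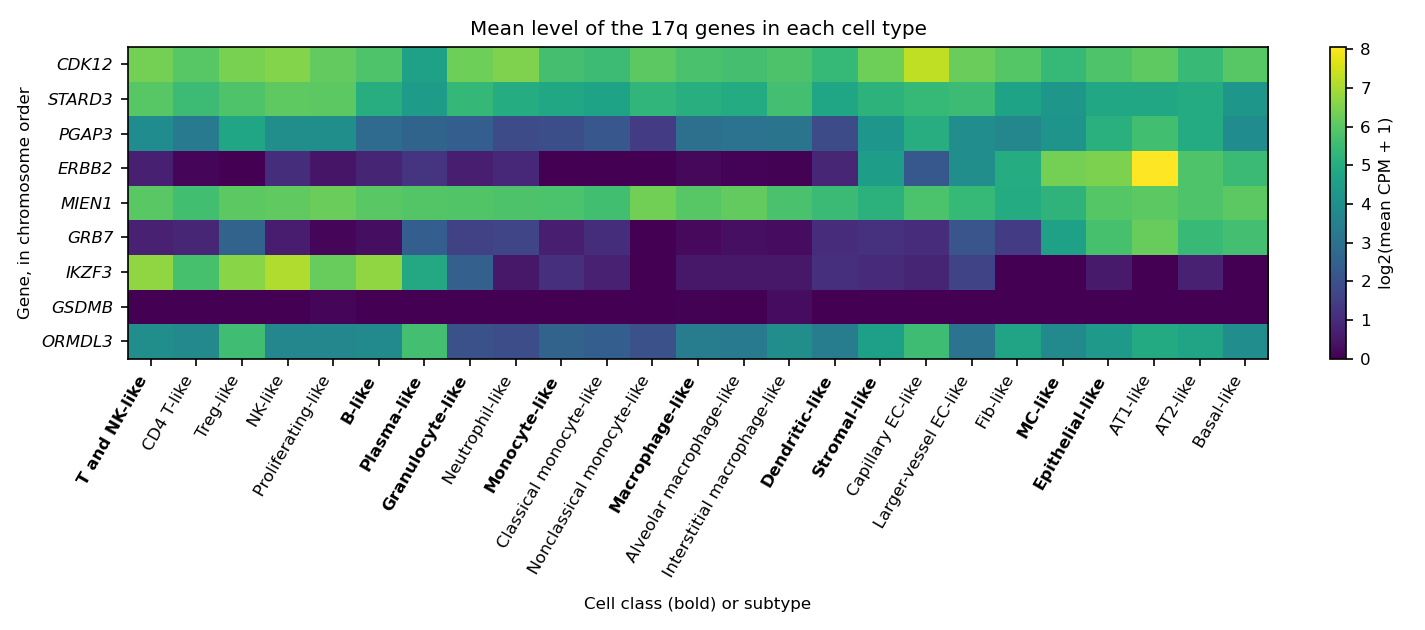
Mean level of each gene as log2(mean CPM + 1) (colour) in the cell classes (bold) and their subtypes with at least 3 libraries, with genes in chromosome order. ERBB2 and GRB7 are bright in epithelial-like and MC-like cells, IKZF3 in lymphoid cells, GSDMB is dark in all columns, and MIEN1 and CDK12 are bright in nearly all.

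ERBB2 was found in the structural cells of the lung and was nearly absent from leukocytes. Its level was 87.8 ± 30.1 CPM in epithelial-like cells, 82.3 ± 29.7 CPM in MC-like cells and 21.4 ± 5.75 CPM in stromal-like cells (SD, n = 6 libraries each). MC-like cells are those the study calls mesenchymal cells, and their leading genes here included MSLN, UPK3B and ITLN1. The name is the study's, and whether it is right was not tested. Fibroblast-like cells are not part of this class and fall under stromal-like cells. Epithelial-like and MC-like cells did not differ beyond their spread, since the epithelial-like level was the higher in 3 of 6 libraries, while MC-like cells lay above stromal-like cells in 6 of 6. In T and NK-like cells the level was 0.633 ± 0.389 CPM, and in monocyte-like cells 0 of 1754 cells held a UMI, which allows a share of cells with a UMI of up to 0.171%. Such limits are on cells with a UMI, not on cells expressing the gene.

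Among subtypes of epithelial-like cells with at least 3 libraries, the cells resembling alveolar type 1 (AT1) cells, the flat cells of gas exchange, stood out. In AT1-like cells ERBB2 was at 199 CPM in control replicate 1 and at 214, 340 and 308 CPM in asthma replicates 8, 10 and 11. The other control libraries held fewer than 10 AT1-like cells and gave no value. In AT2-like cells, which resemble the surfactant-producing type 2 cells, it was at 33.9, 81.8 and 44.9 CPM in the control libraries and at 65.3, 49.8 and 60.2 CPM in the asthma libraries. The AT1-like level was above the AT2-like level in 4 of 4 libraries, 5.07-fold by the means, and the AT1-like level was above the basal-like level in 4 of 4, whereas AT2-like and basal-like cells (44.2 ± 18.0 CPM, n = 5) did not differ beyond their spread. Ciliated-like cells, 34 in all, gave a value only in control replicate 3, at 94.8 CPM. Pooled over libraries they were at 127 CPM on 60 UMIs, too few libraries to place them in the order.

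**Figure D2:**
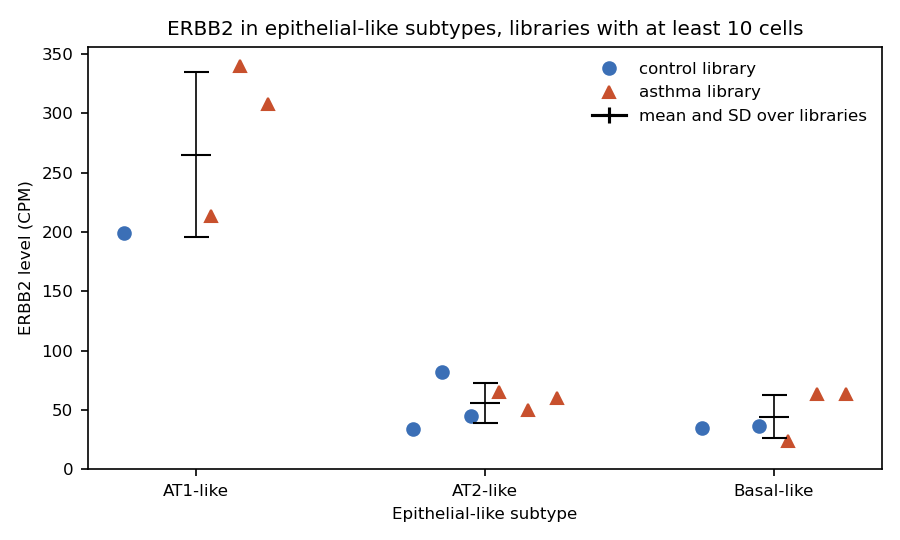
ERBB2 level in CPM (y axis) in 3 subtypes of epithelial-like cells, with a point for each library that held at least 10 cells of the subtype and the mean with SD in black. The AT1-like points sit between 199 and 340 CPM, above all points of AT2-like and basal-like cells.

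Among stromal-like cells, ERBB2 was at 30.8 ± 8.60 CPM in fibroblast-like cells (n = 6), at 14.8 ± 9.26 CPM in larger-vessel endothelial-like cells (n = 6) and at 3.64 ± 4.26 CPM in capillary endothelial-like cells (n = 4). Fibroblast-like cells were above capillary endothelial-like cells in 4 of 4 libraries and above larger-vessel endothelial-like cells in 5 of 6. With every cell thinned to 1000 UMIs, 8.94% ± 3.93 of epithelial-like cells held an ERBB2 UMI, against 0.0290% ± 0.0322 of T and NK-like cells, the class used as background because it should lack the gene (SD, n = 6). Without thinning the shares were 48.5% and 0.247%, at median depths of 8654 and 3659 UMIs per cell. Thinning left out 396 of 11441 control cells and 728 of 12794 asthma cells that held fewer than 1000 UMIs. The limits given for counts of 0 cover counting error only.

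GRB7 UMIs lay mainly in epithelial-like cells, which held 60% of those in kept cells. Its level was 50.9 ± 12.6 CPM in epithelial-like and 23.5 ± 6.44 CPM in MC-like cells (n = 6 each), and the epithelial-like level was the higher in 6 of 6 libraries, 2.17-fold by the means. In stromal-like cells GRB7 was at 1.22 ± 0.887 CPM, below MC-like cells in 6 of 6 libraries. Its levels in AT1-like (71.2 ± 28.8 CPM, n = 4), basal-like (49.1 ± 34.2 CPM, n = 5) and AT2-like cells (42.1 CPM, n = 6) did not differ from their neighbours in order beyond the spread. Thinned to 1000 UMIs, 3.89% ± 2.63 of epithelial-like and 0.0173% ± 0.0425 of T and NK-like cells held a GRB7 UMI (SD, n = 6), and unthinned 35.5% and 0.247%.

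IKZF3 marked the lymphoid cells. Its level was 105 ± 12.6 CPM in B-like and 104 ± 13.5 CPM in T and NK-like cells (n = 6 each), which did not differ beyond their spread, and 28.2 ± 15.4 CPM in plasma-like cells (n = 4), below B-like cells in 4 of 4 libraries. Within T and NK-like cells, NK-like cells held 137, 132 and 133 CPM in the control libraries and 186, 93.3 and 133 CPM in the asthma libraries. CD4 T-like cells held 47.8, 55.5 and 55.6 CPM in the control and 45.4, 47.3 and 58.2 CPM in the asthma libraries. The NK-like level was above the CD4 T-like level in 6 of 6 libraries, 2.63-fold by the means, and above the level in proliferating T and NK-like cells (72.1 ± 14.4 CPM) in 6 of 6. Cells resembling regulatory T cells held 97.3 ± 47.1 CPM over 4 libraries, on 32 UMIs. Of 10143 T and NK-like cells, 2754 were NK-like, 1375 CD4 T-like, 578 proliferating and 71 like regulatory T cells. The remaining T and NK-like cells had no subtype name, so no level is given for them apart from the class.

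In the small class of mast-like cells IKZF3 was at 15.6 and 47.5 CPM in asthma replicates 8 and 10, which held 54 and 11 of these cells, and the other libraries held too few for a value. Over all libraries mast-like cells gave 10 IKZF3 UMIs in 83 cells. Stromal-like cells were at 0.974 ± 1.56 CPM and macrophage-like cells at 0.425 ± 0.389 CPM (n = 6 each). In MC-like cells 0 of 622 cells held a UMI, which allows a share of cells with a UMI of up to 0.482%. Thinned to 1000 UMIs, 10.6% ± 1.51 of T and NK-like and 0.0382% ± 0.0936 of stromal-like cells, its background class, held an IKZF3 UMI (SD, n = 6), and unthinned 30.8% and 0.348%, at median depths of 3659 and 3340 UMIs. Of all 5090 IKZF3 UMIs in kept cells, 81.5% lay in T and NK-like and 8.55% in B-like cells.

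ORMDL3 UMIs were counted in all 10 classes with at least 3 libraries. No class was fixed as lacking this gene, so no background share is given, and its lowest levels cannot be told apart from free RNA. Plasma-like cells, the antibody-secreting cells of the B lineage, had the highest level, with 62.9 and 49.5 CPM in control replicates 1 and 2 and 42.7 and 41.5 CPM in asthma replicates 10 and 11. That was above B-like cells in 4 of 4 libraries, 3.64-fold by the means, and above stromal-like cells, next in order (22.4 ± 6.83 CPM, n = 6), in 4 of 4. Epithelial-like cells followed at 19.5 ± 3.61 CPM and T and NK-like cells at 14.7 ± 1.47 CPM (n = 6 each). Monocyte-like cells were at 4.91 ± 1.70 CPM, and granulocyte-like cells at 3.03 CPM on 6 UMIs in all, with 0 in control replicate 3 and asthma replicate 11.

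Among subtypes, ORMDL3 was at 47.1 ± 23.9 CPM in cells resembling regulatory T cells (15 UMIs), at 45.8 ± 20.1 CPM in capillary endothelial-like cells (39 UMIs) and at 29.4 ± 7.79 CPM in AT1-like cells (30 UMIs), each over 4 libraries. Neighbours in this order did not differ beyond their spread. Capillary endothelial-like cells were above larger-vessel endothelial-like cells (7.43 ± 4.51 CPM) in 4 of 4 libraries, and fibroblast-like cells (24.9 ± 10.8 CPM) were above them in 6 of 6.

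**Figure D3:**
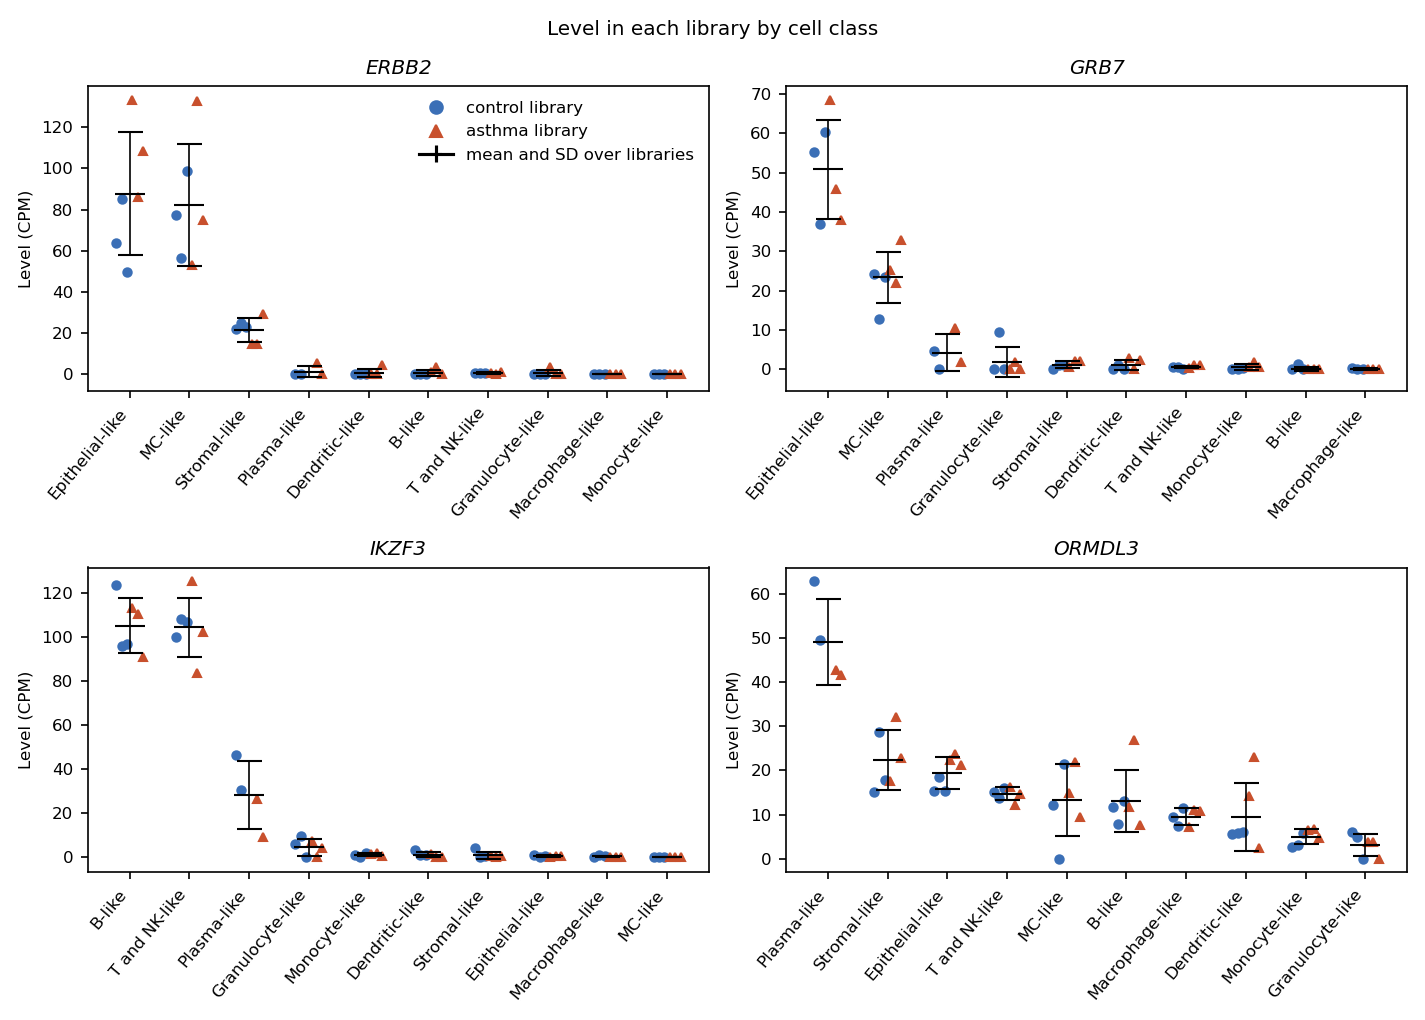
Level in CPM (y axis) of ERBB2, GRB7, IKZF3 and ORMDL3 in each library by cell class, with blue circles for control and red triangles for asthma libraries and the mean with SD in black. On this unscaled CPM the asthma triangles lie above the control circles for ERBB2 and ORMDL3 in epithelial-like cells (from 86.1 against up to 85.3 CPM, and from 21.3 against up to 18.6 CPM) and below them for ORMDL3 and IKZF3 in plasma-like cells. Of all genes tested, 13% in epithelial-like and 25% in plasma-like cells had groups that did not overlap on this scale.

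GSDMB gave almost no UMIs. Whether its gene model in the annotation used for counting covers the 3′ end of the transcript was not tested, so the values below limit the UMIs counted and not the expression of the gene. The deposited barcodes of all 6 libraries held 3 GSDMB UMIs, all in control replicate 3, of 217695595 UMIs in total, and the kept cells held 2, in 1 macrophage-like and 1 T and NK-like cell. In epithelial-like cells 0 of 859 cells held a UMI, which allows a share of cells with a UMI of up to 0.349% and, over their summed UMIs, a counted level of up to 0.366 CPM. Other gasdermins were counted in the same libraries: GSDMD, the gasdermin cleaved by inflammatory caspases, had 16579 UMIs in the deposited barcodes, while GSDMA, a gasdermin gene beside the locus, had 41.

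PGAP3 had its highest level in epithelial-like cells, at 33.3 ± 9.29 CPM (n = 6), and was 2.37-fold above T and NK-like cells (14.1 ± 1.47 CPM), in 6 of 6 libraries. In AT1-like cells it was at 44.2 CPM in control replicate 1 and at 43.5, 51.4 and 52.0 CPM in the asthma libraries, above AT2-like cells in 4 of 4. Stromal-like and MC-like cells, next in order, did not differ from each other beyond their spread. Monocyte-like cells were at 2.80 ± 1.58 CPM, below T and NK-like cells in 6 of 6 libraries.

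Among classes with at least 3 libraries, STARD3 was highest in T and NK-like cells, at 61.6 ± 6.12 CPM. That was 1.88-fold above macrophage-like and 1.97-fold above B-like cells, in 6 of 6 libraries each. Mast-like cells gave a value in 2 libraries, with 46.9 and 79.2 CPM in asthma replicates 8 and 10. Its level in NK-like cells (65.5 ± 12.7 CPM) was above that in CD4 T-like cells (45.2 ± 6.38 CPM) in 5 of 6 libraries. Among macrophage-like cells, those resembling interstitial macrophages (48.7 ± 10.1 CPM, n = 6) were above those resembling alveolar macrophages (30.0 ± 3.31 CPM, n = 5) in 5 of 5 libraries with both.

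MIEN1 and CDK12 were broad. Among classes with at least 3 libraries, MIEN1 ranged from 35.1 ± 7.77 CPM in stromal-like to 63.5 ± 7.20 CPM in T and NK-like cells. Stromal-like cells were below T and NK-like and epithelial-like cells in 6 of 6 libraries. Mast-like cells held 52.1 and 79.2 CPM in asthma replicates 8 and 10, the only 2 libraries with a value. In T and NK-like cells, where its overlapping neighbour ERBB2 was near 0, MIEN1 had 2561 UMIs. Whether reads were counted by strand is not given in the sources used here, so reads of this pair could be mixed where both are expressed. CDK12 ranged from 23.3 ± 19.7 CPM in plasma-like cells (n = 4) to 81.2 ± 11.7 CPM in T and NK-like cells, and was above macrophage-like cells there in 6 of 6 libraries. Capillary endothelial-like cells held 264 CPM in control replicate 2 and 120, 104 and 126 CPM in the asthma libraries, above fibroblast-like cells in 4 of 4. The control value rests on few UMIs, and the other control libraries held fewer than 10 of these cells and gave no value. With the UMIs of all libraries pooled, stromal-like cells took the first place from T and NK-like cells for CDK12 (82.9 CPM against 81.3 CPM).

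For each gene the 3 genes most like it in pattern were taken over 19 cell types, by the Pearson correlation of log2(CPM + 1), among 9576 genes that reached 20 CPM in a cell type. The values describe cell types of the same libraries, which share depth and handling, and carry no p. ERBB2 was most like WASF3 (r = 0.98), TOM1L1 (0.98) and EGFR (0.97), GRB7 most like EPCAM (0.95), C19orf33 (0.94) and CRB3 (0.94), and IKZF3 most like CLEC2D, LAX1 and CD27 (each 0.96). All 3 genes most like ERBB2 and all 3 most like GRB7 were highest in AT1-like cells. PGAP3 was most like CACNB3 (0.90), OTUD7B (0.88) and BTG3 (0.88), CDK12 most like ZNF800 (0.92), GON4L (0.92) and TTF1 (0.88), and STARD3 most like GIMAP7 (0.88), the signal recognition particle RNA annotated as Metazoa_SRP (0.86) and GIMAP6 (0.81). ORMDL3 was most like TARS3 (0.84), SPATS2 (0.81) and ZBTB38 (0.76), and MIEN1 most like RBM34 (0.79), STXBP2 (0.74) and LYPLA2 (0.70). Among the 8 detected members the closest pair was ERBB2 and GRB7 (r = 0.86), and the adjoining pair GRB7 and IKZF3 had an r of -0.36.

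The asthma and control groups were first compared over all kept cells of each library. In such sums, a change in the number of cells of a type and a change of RNA per cell cannot be told apart. With counts scaled by the trimmed mean of M values (TMM), the edgeR quasi-likelihood test called 12 of 14306 genes, or 0.0839% (adjusted p under 0.05 and absolute log2 fold change over 0.25), and none of the 8 members tested. GSDMB had too few UMIs to be tested. Of the 8, ERBB2 alone had an unadjusted p under 0.05, as had 1845 of all genes, or 12.9%, and DESeq2 called ERBB2 and no other member, against 647 of 13445 genes, or 4.81%.

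ERBB2 showed the widest difference. It stood at 5.91, 4.03 and 6.90 TMM-scaled CPM in control replicates 1, 2 and 3 and at 11.97, 15.1 and 12.2 in asthma replicates 8, 10 and 11, so that every asthma library lay above every control library. No other member separated the groups in this way, and 19.3% of all genes tested did. The log2 fold change was 1.22 ± 0.24 (SE), with an edgeR adjusted p of 0.166 over all genes and a DESeq2 adjusted p of 0.000402. On plain CPM, log2 changes in whole libraries would be higher by 0.15 in the asthma group, since TMM scaling shifted them by -0.15.

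The cell types that hold ERBB2 made up different parts of the libraries. Epithelial-like and MC-like cells together were 4.03%, 2.44% and 4.79% of control cells and 10.2%, 8.18% and 5.94% of asthma cells. MC-like cells were 6.41% and 4.35% of cells in asthma replicates 8 and 10 but 0.743% in asthma replicate 11, which is within the control range of 0.714% to 1.44%. Stromal-like cells, which also hold ERBB2, were 3.43%, 3.91% and 9.69% of control cells and 9.02%, 7.34% and 23.3% of cells in asthma replicates 8, 10 and 11. With epithelial-like and MC-like cells left out, an alternative added after the data were seen, the log2 fold change of ERBB2 was 0.55 ± 0.44 with an unadjusted p of 0.259 (edgeR).

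By cell of origin, epithelial-like cells gave 3.099, 0.935 and 2.62 CPM of the ERBB2 level in the control libraries and 5.73, 4.70 and 7.40 CPM in the asthma libraries. MC-like cells gave 0.927, 0.895 and 1.68 CPM in the control libraries and 5.20, 8.59 and 0.630 CPM in asthma replicates 8, 10 and 11. The epithelial-like part was thus higher in all asthma libraries, while the MC-like part was higher in only 2 of them. Of the cells first grouped as MC-like, 56.1% in the control and 9.32% in the asthma group were left out as mixed.

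**Figure D4:**
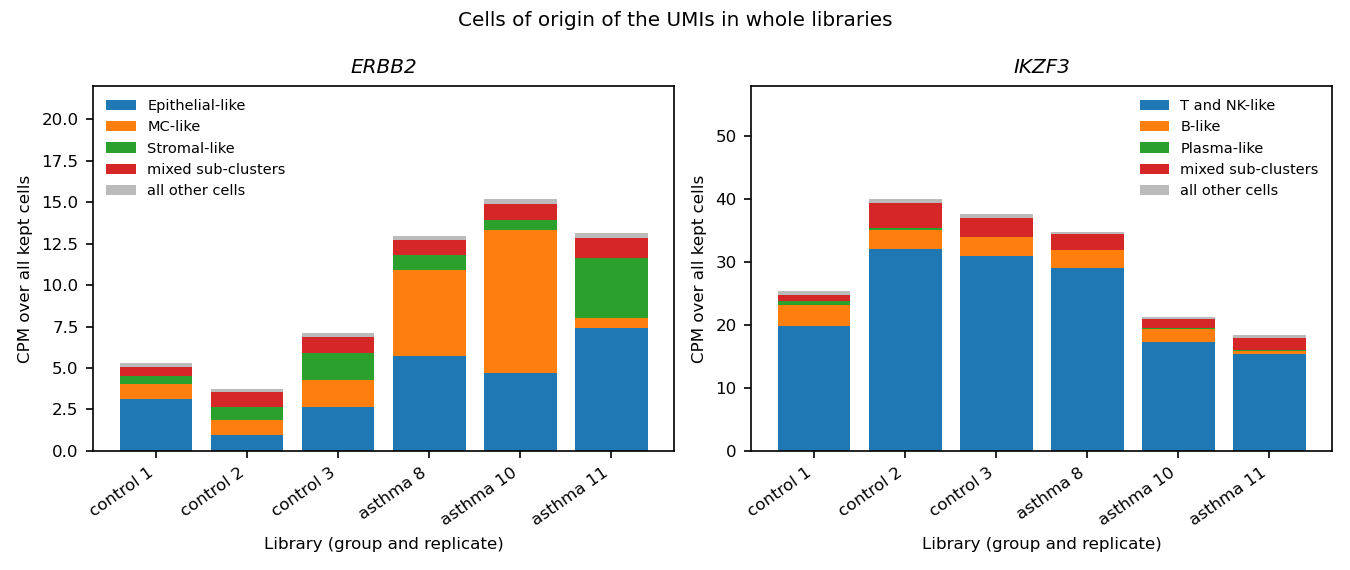
ERBB2 and IKZF3 in CPM over all kept cells of each library (bar height), split by the class of the cells that held the UMIs (colours). The ERBB2 bars of the asthma libraries, from 12.96 to 15.2 CPM, exceed those of the control libraries, from 3.74 to 7.10 CPM, and the IKZF3 bars of both groups overlap.

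IKZF3 was lower in the asthma group by its means but the groups overlapped. It stood at 28.3, 43.0 and 36.5 TMM-scaled CPM in the control and at 32.0, 21.2 and 17.1 in the asthma libraries, with a log2 fold change of -0.61 ± 0.26 (SE), an unadjusted p of 0.0544 and an adjusted p of 0.399 (edgeR). T and NK-like and B-like cells together gave 23.2, 35.1 and 33.9 CPM of its level in the control and 31.8, 19.4 and 15.8 CPM in the asthma libraries. These cells held 22.5%, 32.8% and 32.1% of UMIs in the control and 25.7%, 22.5% and 15.5% in the asthma libraries. Within T and NK-like cells the log2 fold change of IKZF3 was -0.05 ± 0.14 and within B-like cells -0.03 ± 0.21.

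The remaining members had overlapping groups over whole libraries, and none had an unadjusted p under 0.05. GRB7 had a log2 fold change of 0.59 ± 0.43, MIEN1 of -0.18 ± 0.14, STARD3 of -0.12 ± 0.14, PGAP3 of 0.09 ± 0.15, ORMDL3 of 0.05 ± 0.16 and CDK12 of -0.01 ± 0.10 (SE). Control replicate 2, with the fewest epithelial-like cells (1% of cells), had the lowest GRB7 level, 1.36 TMM-scaled CPM against 4.07 and 3.96 in the other control libraries, and without it the log2 fold change of GRB7 was 0.23 ± 0.27. The median log2 fold change over the 8 members was 0.02 and over all genes tested -0.02.

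The groups were then compared within each of 10 classes, where 46 of 90 pairs of a member and a class had enough UMIs for the test. The edgeR test called none of the 46 pairs, and DESeq2 called none, against 0.885% of all pairs of a gene and a class. An unadjusted p under 0.05 (edgeR) was reached by 3 of the 46 pairs and by 7.53% of all pairs. Over all genes, edgeR called 1.92% in stromal-like, 0.0458% in plasma-like, 0.0370% in MC-like and 0.0158% in B-like cells, and 0 genes in each of the 6 other classes. The lowest adjusted p of a member was 0.438, of CDK12 in stromal-like cells. Of the 46 log2 fold changes, 25 were above and 21 below 0, and 41 were smaller than 0.5 in size. The groups did not overlap in 4 of the 46 pairs with TMM scaling, where they did not in 14.2% of all pairs of a gene and a class, and in 9 on plain CPM, where the share over all pairs was 14.8%.

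**Figure D5:**
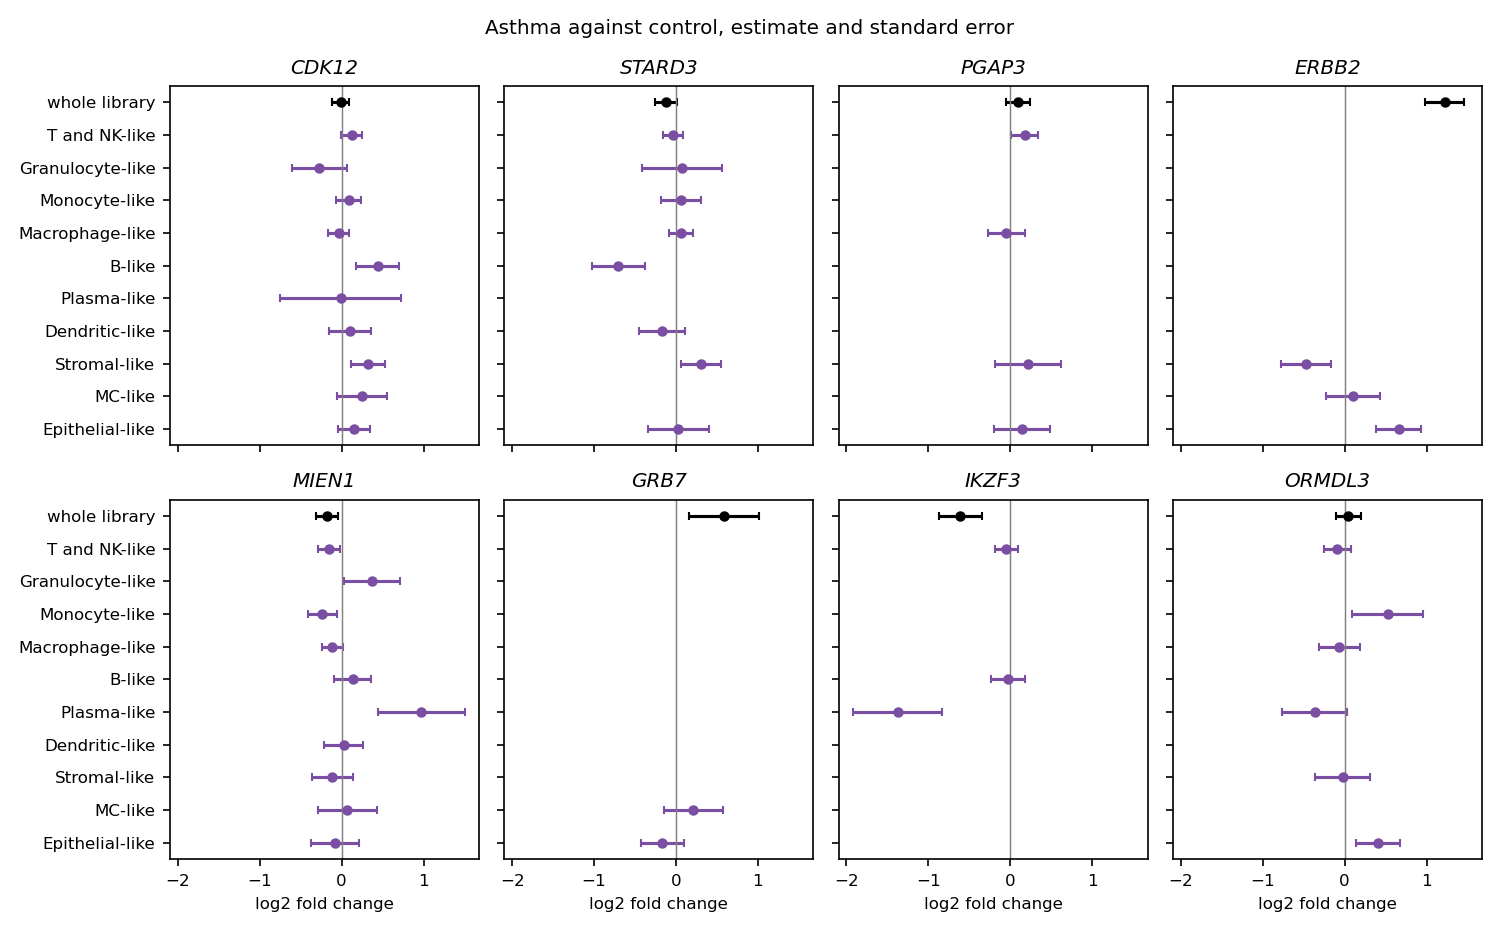
log2 fold change of asthma against control (x axis) with its standard error for each member over whole libraries (black) and within each class where it was tested (purple). Among whole libraries ERBB2 lies farthest from 0, at 1.22, while within classes most estimates lie within 0.5 of 0.

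Within epithelial-like cells, ERBB2 stood at 74.0, 89.9 and 46.4 TMM-scaled CPM in the control and at 123, 87.4 and 109 in the asthma libraries. The groups overlapped on this scale but not on plain CPM, where the highest control library was at 85.3 and the lowest asthma library at 86.1 CPM. On plain CPM 13% of all genes tested in this class did not overlap. The log2 fold change was 0.66 ± 0.28 (SE), with an unadjusted p of 0.0441 and an adjusted p of 0.672 (edgeR), and without control replicate 3 it was 0.41 ± 0.24. The subtypes differed between those libraries: AT1-like cells were 11.1%, 12.5% and 2.17% of epithelial-like cells in the control and 59.5%, 18.1% and 29.0% in the asthma libraries, and basal-like cells were 70.3% of them in control replicate 3. The part of this shift in the ERBB2 difference was not tested. Within AT2-like cells the control range of 33.9 to 81.8 CPM enclosed all asthma values. Within AT1-like cells the 3 asthma values, from 214 CPM, were above the 1 control value of 199 CPM, which came from 16 cells. Within basal-like cells asthma replicates 10 and 11 (63.4 and 63.1 CPM) were above both control values (34.7 and 36.0 CPM). Asthma replicate 8 (23.9 CPM) was below both. The basal-like values of control replicate 1 and asthma replicate 8 came from 10 and 12 cells. The share of all genes with such orders in these subtypes is not given here. In MC-like cells the log2 fold change of ERBB2 was 0.10 ± 0.33. In stromal-like cells it was -0.47 ± 0.31, and TMM scaling lowered asthma values there by 0.26 on the log2 scale relative to plain CPM.

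ORMDL3 was tested in 6 classes and called in none. Its log2 fold change was -0.09 ± 0.16 in T and NK-like, -0.07 ± 0.25 in macrophage-like, -0.02 ± 0.33 in stromal-like and 0.52 ± 0.43 in monocyte-like cells (SE). In epithelial-like cells it stood at 18.0, 19.6 and 14.2 TMM-scaled CPM in the control and at 20.7, 24.2 and 21.4 in the asthma libraries, without overlap, as did 13.9% of all genes tested in this class, with a log2 fold change of 0.41 ± 0.27, an unadjusted p of 0.166 and an adjusted p of 0.714 (edgeR). These values rest on 53 UMIs in the control and 108 in the asthma group. The subtypes of epithelial-like cells differed between libraries, as given above for ERBB2, and the part of this in the ORMDL3 difference was not tested.

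STARD3 in B-like cells had the other unadjusted p under 0.05 in a class with all 6 libraries. It stood at 43.9, 44.0 and 29.0 TMM-scaled CPM in the control and at 20.9, 25.1 and 31.1 in the asthma libraries, which overlapped, with a log2 fold change of -0.70 ± 0.32 and an adjusted p of 0.798 (edgeR). Asthma replicate 11 gave only 30 B-like cells. In the 7 other classes tested the log2 fold change of STARD3 ran from -0.17 in dendritic-like to 0.31 in stromal-like cells.

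In plasma-like cells the test had 2 libraries per group, control replicates 1 and 2 and asthma replicates 10 and 11, with at most 38 cells each. IKZF3 was at 48.1 and 34.5 TMM-scaled CPM in the control and 22.7 and 12.04 in the asthma libraries, on 28 and 10 UMIs, with a log2 fold change of -1.38 ± 0.55, an unadjusted p of 0.0390 and an adjusted p of 0.959 (edgeR). ORMDL3 and MIEN1 also did not overlap between the 2 groups there, with log2 fold changes of -0.36 ± 0.40 and 0.97 ± 0.53. Of all genes tested in this class 33.7% had groups that did not overlap, and 25% on plain CPM, and none of the 3 members passed the test.

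GRB7 was tested in epithelial-like (log2 fold change -0.17 ± 0.26) and MC-like cells (0.21 ± 0.36), PGAP3 in 4 classes, with log2 fold changes from -0.05 to 0.22, MIEN1 in 10 and CDK12 in 10. MIEN1 ran from -0.24 in monocyte-like to 0.97 in plasma-like cells with a median of -0.03, and CDK12 from -0.27 in granulocyte-like to 0.44 in B-like cells with a median of 0.11. No pair of these 4 genes and a class had an unadjusted p under 0.05.

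Genes of the same region and pathways were examined as 8 lists, chosen with earlier results of these data known. No gene of any list was called by edgeR in a class or over whole libraries. Of 20 further neighbours at the locus 19 were in the files, and the 2 with the most UMIs were RARA, a retinoic acid receptor, at 793 ± 110 CPM in granulocyte-like cells, and PSMD3, a proteasome subunit, at 72.3 ± 8.31 CPM in macrophage-like cells, each in its highest class (n = 6). All 7 genes of the ORMDL and serine palmitoyltransferase list were in the files, led by SPTSSA, a small subunit of that enzyme (130 ± 27.3 CPM in monocyte-like cells), and ORMDL2 (61.3 ± 7.25 CPM in macrophage-like cells). Over 44 tests of this list 0 were called. Over all genes, edgeR called 0.0839% in whole libraries and at most 1.92% in a class (stromal-like cells).

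In the gasdermin list 8 of 9 genes were in the files. GZMA, the granzyme that cleaves GSDMB in people, was at 852 ± 334 CPM in T and NK-like cells, and GSDMD at 104 ± 8.41 CPM in the same class. In the list of ERBB family genes and adaptors, led by GRB2 (252 ± 23.9 CPM in B-like cells) and SHC1 (128 ± 20.6 CPM in stromal-like cells), the median log2 fold change over 7 genes tested in whole libraries was 0.76. The medians of the 7 other lists in whole libraries lay between -0.20 and 0.03, and that of all genes was -0.02. Within classes the median of the ERBB list ran from -0.39 (4 genes, monocyte-like cells) to 0.49 (6 genes, epithelial-like cells). ERBB3, which pairs with ERBB2, was highest in epithelial-like cells (147 ± 50.6 CPM) and had a log2 fold change of 0.89 ± 0.32 over whole libraries (adjusted p 0.339, edgeR) and of 0.68 ± 0.22 in epithelial-like cells (adjusted p 0.672, edgeR). EGFR, also highest in epithelial-like cells (67.3 ± 17.3 CPM), had 0.82 ± 0.35 and -0.18 ± 0.25. The log2 fold change of ERBB3 was below 0 in MC-like (-0.60 ± 0.57), macrophage-like (-1.02 ± 0.87) and monocyte-like cells (-0.54 ± 0.90). This list, ERBB3 and EGFR were singled out here after their values were seen.

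The Ikaros list was led by IKZF1 (184 ± 25.1 CPM in T and NK-like cells) and IKZF5 (71.9 ± 29.5 CPM in granulocyte-like cells). In the list of GPI anchor genes GPAA1 (97.4 ± 19.2 CPM in MC-like cells) and PIGT (80.6 ± 20.5 CPM in stromal-like cells) had the most UMIs. Among kinases and cyclins of transcription elongation these were CDK13 (88.7 ± 34.2 CPM) and CCNT1 (137 ± 55.5 CPM), both in granulocyte-like cells, and in the list of endosomal cholesterol transport NPC2 (4574 ± 1655 CPM in epithelial-like cells) and VAPA (487 ± 31.1 CPM in macrophage-like cells).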

How the data were processed

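The authors aligned the reads to macFas6 with Cell Ranger (the methods, the submitters' processing notes, which name version 2.1.1, and the file headers, which name 4.0.0, differ) and deposited raw counts of UMIs, 1 matrix of genes by barcodes per library, without normalization. The strand setting is not given in the sources used here. A barcode was kept as a cell if it had over 500 genes but under 5000, no fewer than 500 UMIs, and a share of UMIs from the 37 mitochondrial genes of up to 25%.

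Cells were clustered on 2000 variable genes without the members and listed genes, with 10 principal components, 20 neighbours and the Leiden method at a resolution of 0.8 (scanpy 1.11.5, leidenalg 0.10.2, Python 3.11.15). A class needed 3 markers with a log2 fold of at least 1 in at least 10% of cells. Sub-clusters with more markers of another class were left out as mixed. The naming thresholds were set after seeing the data. Doublets were kept, and 1141 cells with the highest Scrublet scores (0.8% per 1000 barcodes) were removed as an alternative.

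Counts were summed per library and class (at least 10 cells, at least 2 libraries per group) and tested with edgeR 4.0.16 (quasi-likelihood, TMM, filterByExpr, Benjamini-Hochberg adjustment over all genes of a class) in R 4.3.3, with the SE of a log2 fold change taken as its size divided by the square root of F. Alternatives were DESeq2 1.42.0, no filter on low counts, each library left out, a mitochondrial maximum of 10%, a resolution of 1.6, mixed sub-clusters kept, doublets removed, and all deposited barcodes. Genes named were the 9 members in every class tested, the 2 most abundant genes of each list where none was called, and the 3 genes most like each member in pattern. ERBB3, EGFR in the tests, and GSDMA fall outside this rule and were named after their values were seen. The members and lists were chosen with earlier results of these data known. No sequence or coordinate is printed, since no genome of the files' build was used here.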

Additional observations from a re-analysis of the deposited data

Results flagged for a closer look

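ORMDL3 separated the groups in opposite directions in 2 classes: every asthma library was above every control library in epithelial-like cells (log2 fold change 0.41 ± 0.27, SE, 3 libraries per group) and below in plasma-like cells (-0.36 ± 0.40, 2 libraries per group). Neither passed the edgeR test (adjusted p 0.714 and 0.990), and the difference between the classes was not tested. Of all genes tested, 13.9% in epithelial-like and 33.7% in plasma-like cells had groups that did not overlap. In plasma-like cells ORMDL3 stood at 65.0 and 56.0 TMM-scaled CPM in control replicates 1 and 2. It stood at 36.3 and 55.4 in asthma replicates 10 and 11, so the closest libraries of the groups were at 56.0 and 55.4. The plasma-like values rest on 40 control and 31 asthma UMIs.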

How the results depend on the processing

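The count of members called over whole libraries was 0 with edgeR under every alternative run with it and 1 (ERBB2) with DESeq2. Within classes it was 0 under all alternatives, plasma-like cells with a library left out aside. These had 2 libraries per group, so leaving out 1 of them left 1 library in a group, and that fit decides nothing. Leaving out each library otherwise gave 0 members in both cases. For ERBB2 over whole libraries it gave a log2 fold change of 1.03 to 1.40 with adjusted p from 0.126 to 0.343 (edgeR). Of 648 log2 fold changes of members recomputed under alternatives, 59 changed sign, all for values no larger than their standard error, and 0 of the larger ones did. DEGs over all classes, the background of these counts, numbered 187, and 617 with DESeq2, 1175 without the filter on low counts, 8 at a resolution of 1.6 and 99 with mixed sub-clusters kept. They numbered from 5 to 422 with 1 library left out, 5 without control replicate 3 and 422 without asthma replicate 11. The cause was not tested. Scaling bears on overlap: 5 of the 9 pairs of a member and a class whose groups separated on plain CPM overlapped with TMM (ERBB2 in epithelial-like, PGAP3 in T and NK-like, MIEN1 in granulocyte-like, STARD3 and CDK12 in stromal-like cells), a comparison added after the data were seen. Depth limits the tests: 44 of 90 pairs had too few UMIs to be tested. In cell types with at least 3 libraries, levels pooled over libraries stayed within 1 SD of the means. In types with 2 libraries some did not. Unthinned shares of cells, given beside the thinned ones, were higher. No paired analysis was possible because the groups share no replicate numbers.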
